A study of Homo sapiens with 4 samples.

Results

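The genes described here are 40 that act in DNA replication and mitosis, of 13165 genes with a value in RNA sequencing of TPC1, a cell line from a human papillary thyroid cancer. They were taken by symbol from a list of names, chosen with earlier results of these data known, and all 40 had a value. By role they fell into 4 cyclins and kinases of the passage from G1 into S phase (G1/S), 15 S-phase genes and 21 mitotic genes. TPC1-Vector cells carried an empty vector and TPC1-INAVA cells, labelled TPC1-C1orf106, carried the same kind of vector expressing INAVA (C1orf106), and both were grown in DMEM with fetal bovine serum and selected as stable lines with puromycin at 0.5 μg/mL for 2 weeks. The lines were selected separately and sequenced as 2 libraries each, so what INAVA did and what differed between the selections cannot be told apart. For every gene the table holds 1 combined value for each group, in FPKM, a unit that divides the fragments of a gene by its transcript length and by the total of its sample. There is therefore no spread between libraries, no error can be given, no test was run, and the depth behind the values is unknown.

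INAVA (C1orf106) itself stood at 122.5 FPKM in TPC1-INAVA, against 7.96 FPKM with the empty vector. Of 8 thyroid follicular cell markers 3 had a value here, with PAX8 at 60.1 and 55.7 FPKM in vector and INAVA cells, FOXE1 at 5.26 and 5.89 and HHEX at 8.33 and 10.0. TG, TSHR, NKX2-1 and SLC5A5, which mark differentiated thyroid follicular cells, were among those with no value here. Of 6 epithelial markers 3 had a value, KRT7 at 1.97 and 2.01 FPKM and the keratin partners KRT8, lower at 23.4 and 10.5, and KRT18, higher at 140.3 and 211.7. Of 8 immune and blood markers 4 had a value, none above 8.67 FPKM (CD68), and of 8 endothelial and fibroblast markers 3 had one, none above 2.24 FPKM (PDGFRB).

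A cell that divides first commits itself in G1, when D-type cyclins and then E-type cyclins with CDK2 switch on their kinases. The MCM2 to MCM7 ring is loaded on origins by CDC6 and CDT1 and becomes the replicative helicase once CDC45 and GINS join it, and in mitosis cyclin B with CDK1, the kinetochores and the spindle checkpoint then divide the copied chromosomes. Transcription of many S-phase genes is driven by E2F factors, and that of many mitotic genes by MYBL2 and FOXM1 acting through a promoter element called the cell cycle homology region, so levels of these mRNAs follow how many cells of a culture are in cycle as well as how much each cell makes. In bulk RNA, fewer cells in a phase and less RNA per cell cannot be told apart.

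The promoters of 4 members are printed first, because they show the elements that set the S-phase and mitotic members apart in sequence. Each line holds the 250 bases before the start of transcription, 5′ to 3′ along the gene, from RefSeq (GRCh38.p14). Capitals mark an E2F site (TTTCCCGC, TTTGGCGC, TTTCGCGC or TTTGCCGC), a cell cycle homology region (TTTGAA) or a CCAAT box (CCAAT), on either strand, so that CCAAT on the opposite strand reads ATTGG. MCM6 is the member with the lowest difference between the groups, MKI67 and CCNB2 are mitotic, and CCNE1 is the member with the highest.
MCM6: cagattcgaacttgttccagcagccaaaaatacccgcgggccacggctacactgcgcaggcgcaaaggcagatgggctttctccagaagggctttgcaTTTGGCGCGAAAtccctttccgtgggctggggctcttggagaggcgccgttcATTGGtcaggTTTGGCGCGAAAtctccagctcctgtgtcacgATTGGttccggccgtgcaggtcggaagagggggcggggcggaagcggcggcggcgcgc
MKI67: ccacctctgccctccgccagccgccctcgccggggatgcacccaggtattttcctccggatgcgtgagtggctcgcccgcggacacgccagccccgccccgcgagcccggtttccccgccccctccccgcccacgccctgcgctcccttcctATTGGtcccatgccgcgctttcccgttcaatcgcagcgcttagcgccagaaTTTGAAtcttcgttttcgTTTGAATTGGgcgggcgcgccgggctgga
CCNB2: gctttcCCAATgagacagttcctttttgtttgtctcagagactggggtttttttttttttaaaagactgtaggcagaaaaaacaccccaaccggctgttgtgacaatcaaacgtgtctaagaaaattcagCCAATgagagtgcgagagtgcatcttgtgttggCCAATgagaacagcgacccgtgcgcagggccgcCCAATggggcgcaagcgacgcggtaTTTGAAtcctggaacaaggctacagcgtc
CCNE1: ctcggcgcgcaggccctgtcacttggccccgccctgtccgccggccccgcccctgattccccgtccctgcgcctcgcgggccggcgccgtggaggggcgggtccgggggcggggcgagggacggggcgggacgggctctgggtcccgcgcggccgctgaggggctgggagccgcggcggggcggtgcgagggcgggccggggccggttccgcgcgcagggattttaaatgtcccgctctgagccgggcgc
The MCM6 stretch lies at chr2:135876444-135876693 on the minus strand, and in it 4 E2F matches form 2 overlapping pairs on opposite strands, beginning at -152 and -148 and at -90 and -86 from the start. The MKI67 stretch (chr10:128126424-128126673, minus strand) holds cell cycle homology regions at -47 and -29, the second of which shares a base with a CCAAT box. The CCNB2 stretch (chr15:59104896-59105145, plus strand) holds 1 cell cycle homology region, at -29, downstream of 4 CCAAT boxes. The CCNE1 stretch (chr19:29811741-29811990, plus strand) holds none of these letters, which says nothing on whether E2F binds there.

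In TPC1-INAVA most of these genes were slightly lower than in TPC1-Vector, while 3 of the 4 G1/S genes were higher. Differences are given as log2(FPKM + 0.5) in TPC1-INAVA minus TPC1-Vector, with medians beside those of all 12305 genes kept, those whose mean was 0.5 FPKM or more. Of the 40 members 33 (82.5%) were lower and 7 were higher, against 49.2% lower and 50.8% higher of all those genes. The median difference was -0.08 for the members and 0.0033 for all genes. At least 1.1-fold lower were 17 members (42.5%), against 21.7% of all genes, and at least 1.1-fold higher were 3, against 23.4%. The level of 1.1-fold was chosen after the values were seen. At 1.5-fold, 1 member was higher (CCNE1) and 0 were lower, where 2.24% and 1.45% of all genes passed. Most members are abundant, and among the 6607 genes whose mean reached 10 FPKM the shares were 47.4% lower and 17.1% at least 1.1-fold lower.

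**Figure D1:**
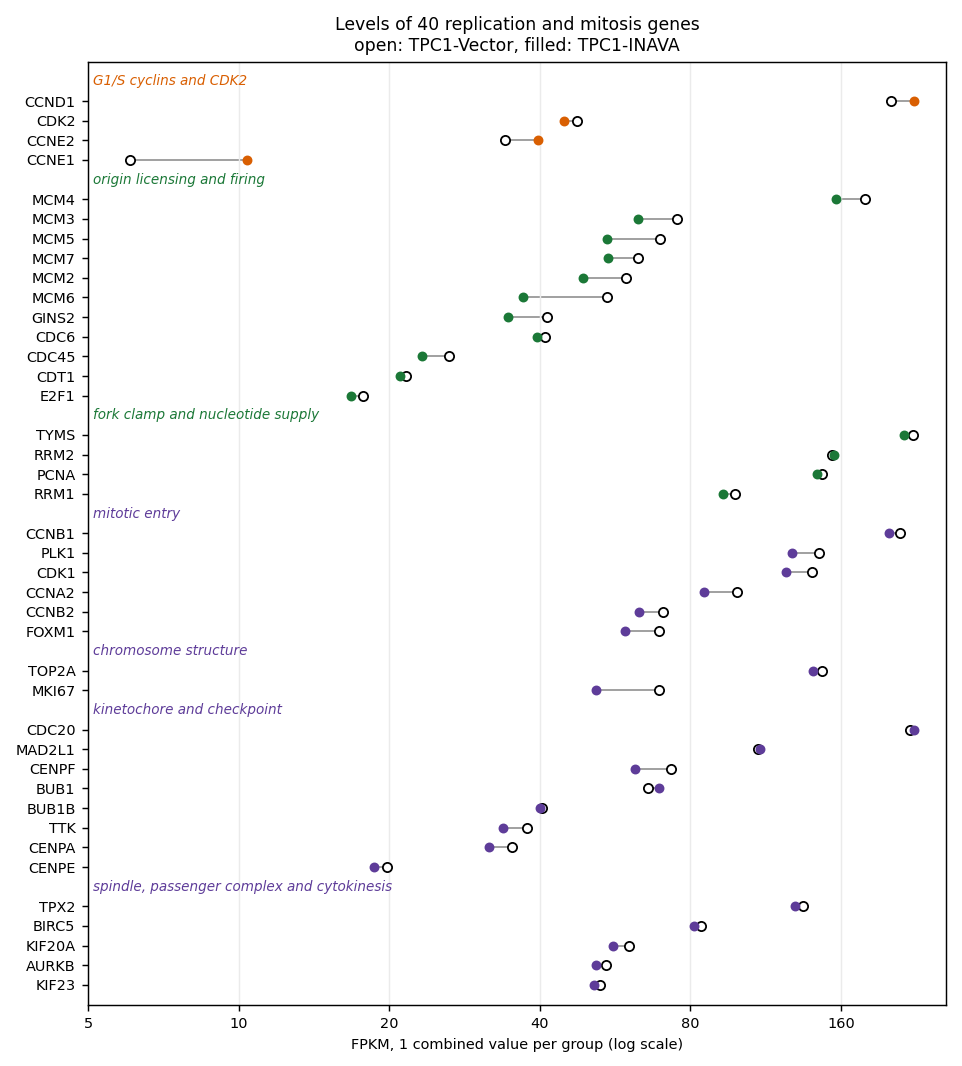
Level of each of the 40 members (x axis, FPKM on a log scale) in TPC1-Vector (open circles) and TPC1-INAVA (filled circles), 1 combined value per group, sorted by role and by level. The filled circle lies to the right of the open one for CCND1, CCNE2 and CCNE1 among the G1/S genes, for RRM2 among the S-phase genes and for CDC20, MAD2L1 and BUB1 among the mitotic genes, and to the left for the other 33.

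The members spanned 6.06 to 223.4 FPKM in TPC1-Vector, with a median of 69.2 FPKM, and 10.4 to 224.0 FPKM in TPC1-INAVA, with a median of 57.6 FPKM. The median of all genes kept was 11.3 FPKM in either group. TYMS, CDC20, CCNB1 and CCND1 were the most abundant in TPC1-Vector, at 223.4, 219.6, 210.0 and 201.4 FPKM, and CCNE1, E2F1 and CENPE the least, at 6.06, 17.7 and 19.8 FPKM. Summed over members, FPKM in TPC1-INAVA differed from TPC1-Vector by -9.03% for the S-phase genes, -6.39% for the mitotic genes and 10.3% for the G1/S genes.

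The G1/S members were the only group with a median above 0 (0.19). Of the 4, 3 were higher, all 3 by at least 1.1-fold (2 with quantile normalization). Of all genes kept 50.8% were higher and 23.4% higher by at least 1.1-fold. CCNE1, cyclin E1, was at 6.06 FPKM in vector cells and 10.4 FPKM in INAVA cells, 71.2% higher and a difference of 0.73. It had the lowest level of all 40 members in either group, and 98.7% of all genes kept had a lower difference. Its paralogue CCNE2 was at 34.1 and 39.7 FPKM, a difference of 0.22, and its position in the table also covers INTS8. The level of CCNE1 relative to CCNE2 was 0.178 in TPC1-Vector and 0.261 in TPC1-INAVA, so cyclin E2 mRNA remained the more abundant per length. CCND1, cyclin D1, was at 201.4 and 224.0 FPKM, a difference of 0.15 that was 0.08 with quantile normalization, under 1.1-fold. The kinase that the E-type cyclins activate, CDK2, was the 1 lower member of the group, at 47.4 and 44.7 FPKM (-0.08).

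The 6 subunits of the MCM ring were all lower in TPC1-INAVA, each by at least 1.1-fold. Their median was -0.27 and their range -0.55 to -0.19. Of all genes kept 49.2% were lower and 21.7% lower by at least 1.1-fold. MCM6 was at 54.5 FPKM in vector cells and 37.0 FPKM in INAVA cells, 32.2% lower, and 1.65% of all genes kept had a lower difference. MCM5 was at 69.5 and 54.4 FPKM (-0.35), and MCM2 at 59.6 and 48.8 FPKM (-0.29). The subunits, which stand in the ring in equal number, thus differed from each other in the size of their difference as well as in level. MCM3 was at 75.3 and 62.9 FPKM (-0.26), MCM7 at 62.9 and 54.7 FPKM (-0.20), with a position that also covers AP4M1, CNPY4 and TAF6, and MCM4 at 179.0 and 156.7 FPKM (-0.19). MCM4 was the most abundant of the 6 in both groups and MCM6 the least, and the ratio of their FPKM was 3.28 in TPC1-Vector and 4.24 in TPC1-INAVA.

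The factors that act on the ring were lower too, but less evenly. GINS2, a subunit of the GINS complex, was at 41.4 and 34.6 FPKM in TPC1-Vector and TPC1-INAVA (-0.26), and CDC45, the other helicase partner, at 26.3 and 23.2 FPKM (-0.17). The loaders stood closer to 0, with CDC6 at 41 and 39.4 FPKM (-0.06) and CDT1 at 21.6 and 21.0 FPKM (-0.04). Their ratio, CDT1 to CDC6, was 0.526 and 0.534. E2F1, a transcription factor that does not act on the ring but was counted with these genes, was at 17.7 and 16.8 FPKM (-0.07). Over the 11 genes counted under origin licensing and firing, MCM2 to MCM7 and E2F1 among them, 11 were lower. Of these 8 were lower by at least 1.1-fold (72.7%, against 21.7% of all genes kept), and the median was -0.20.

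The genes of the replication fork and of nucleotide supply differed least among the S-phase genes, with a median of -0.04 (-0.09 with quantile normalization). At least 1.1-fold apart were 0 of 4, where 21.7% of all genes kept were that much lower and 23.4% that much higher. PCNA, the sliding clamp, was at 146.5 FPKM in vector cells and 143.6 FPKM in INAVA cells (-0.03), at a position shared with PCNA-AS1. TYMS, thymidylate synthase, was at 223.4 and 214.2 FPKM (-0.06), at a position shared with ENOSF1 and TYMSOS. Ribonucleotide reductase had its large subunit RRM1 at 98.3 and 93.1 FPKM (-0.08) and its small subunit RRM2 at 153.5 and 155.2 FPKM (0.02). RRM2 was the 1 S-phase member above 0, and with quantile normalization it was below (-0.05). The 11 licensing and firing genes and these 4 are both S-phase genes, and the first group ranged from -0.55 to -0.04 and the second from -0.08 to 0.02.

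**Figure D2:**
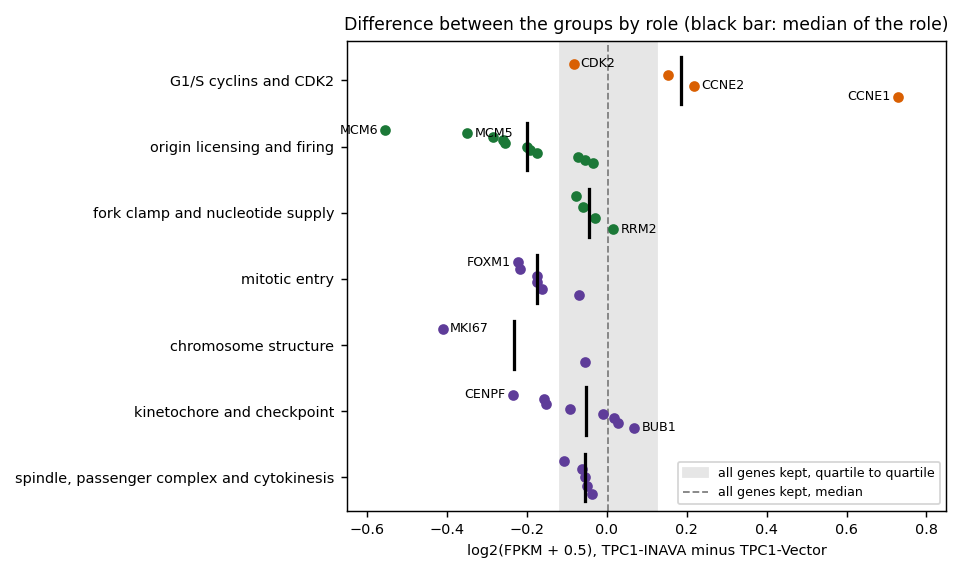
Difference between TPC1-INAVA and TPC1-Vector in log2(FPKM + 0.5) (x axis) for each member by role (rows), with a black bar at the median of the role, a grey band from the lower to the upper quartile of all 12305 genes kept (-0.12 to 0.13) and a dashed line at their median. Of the 11 licensing and firing genes 8 lie to the left of the band, the 5 spindle and cytokinesis genes lie within it, and CCNE1 stands alone at 0.73.

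Genes of mitotic entry were lower in 6 of 6, 5 of them by at least 1.1-fold, with a median of -0.17. Among all genes kept the shares were 49.2% and 21.7%. FOXM1, a transcription factor of mitotic genes, was at 69.3 FPKM in vector cells and 59.3 FPKM in INAVA cells (-0.22), at a position shared with RHNO1. CCNA2, cyclin A2, which acts in S phase as well as at mitotic entry, was at 99 and 85.1 FPKM (-0.22), at a position shared with EXOSC9. The mitotic kinases PLK1 and CDK1 had the same difference, -0.17, at 144.3 and 127.9 FPKM for PLK1 and at 139.9 and 124.0 FPKM for CDK1. Of the B-type cyclins that bind CDK1, CCNB2 was at 70.6 and 63.0 FPKM (-0.16) and the more abundant CCNB1 at 210.0 and 200 FPKM (-0.07). The ratio of CCNB1 to CCNB2 was 2.98 in TPC1-Vector and 3.18 in TPC1-INAVA.

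The proliferation marker MKI67, which coats mitotic chromosomes, had the lowest difference of the mitotic genes, at 69.1 FPKM in vector cells and 51.9 FPKM in INAVA cells (-0.41, 24.9% lower). TOP2A, the topoisomerase that untangles sister chromatids and the other commonly used proliferation marker, was at 146.4 and 141.0 FPKM (-0.05). MKI67 lies in a stretch of chromosome 10 whose genes were mostly lower, described further on, and set against the median of their neighbours the markers stood close together, at -0.07 for MKI67 and -0.05 for TOP2A.

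Kinetochore and checkpoint genes went both ways, with 5 of 8 lower (62.5%, against 49.2% of all genes kept) and 3 higher. Their median was -0.05. CENPF, a protein of the outer kinetochore, was at 73.0 and 61.9 FPKM (-0.23), the centromeric histone gene CENPA at 35.2 and 31.6 FPKM (-0.15) and the motor gene CENPE at 19.8 and 18.6 FPKM (-0.09). Among the checkpoint kinases, TTK was at 37.7 and 33.7 FPKM (-0.16) and BUB1 at 65.8 and 69.1 FPKM (0.07). BUB1B, the BUB1 relative that binds CDC20, was at 40.4 and 40.1 FPKM (-0.01). MAD2L1, which holds CDC20 inactive, was at 109.1 and 110.4 FPKM (0.02) and CDC20, the activator of the anaphase-promoting complex, at 219.6 and 223.7 FPKM (0.03), and both were below 0 with quantile normalization. BUB1, BUB1B, MAD2L1 and CDC20 were therefore the mitotic members nearest to or above 0, while the checkpoint kinase gene TTK stood at -0.16.

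Genes of the spindle, the chromosomal passenger complex and cytokinesis were lower in 5 of 5, but 0 by as much as 1.1-fold. Among all genes kept the shares were 49.2% and 21.7%. The median of the 5 genes was -0.05. With quantile normalization KIF20A passed 1.1-fold (-0.14) and the median was -0.09. KIF20A, a kinesin of cytokinesis, was at 60.2 and 55.9 FPKM (-0.11), at a position shared with CDC23, and KIF23, a kinesin of the central spindle, at 52.7 and 51.4 FPKM (-0.04). AURKB, the kinase of the passenger complex, was at 54.2 and 51.9 FPKM (-0.06), and its partner BIRC5 (survivin) at 84.1 and 81.3 FPKM (-0.05). TPX2, a spindle assembly factor, was at 134.5 and 129.5 FPKM (-0.05).

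Set side by side, the S-phase genes had 14 of 15 lower, a median of -0.17 and a range of -0.55 to 0.02, and the mitotic genes 18 of 21 lower, a median of -0.09 and a range of -0.41 to 0.07. By at least 1.1-fold, 8 of 15 (53.3%) and 9 of 21 (42.9%) were lower. Of all genes kept 49.2% were lower and 21.7% lower by at least 1.1-fold. The medians differed by -0.08, the ranges overlapped through most of their length, and without replicates the difference has no test. With quantile normalization the medians differed by -0.037, and the difference also depends on where the G1/S genes are counted. With CCND1, CCNE1, CCNE2 and CDK2 among the S-phase genes the S-phase median was -0.08 and the difference 0.02.

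In some stretches of the genome neighbouring genes differed together, and members were therefore set beside the genes within 5 Mb of their start that had a mean of at least 1 FPKM. In earlier results of these data stretches of chromosomes 3 and 10 were lower and a stretch of chromosome 20 higher in TPC1-INAVA, and the 338 genes kept in the chromosome 10 stretch had 316 lower and a median of -0.32. MKI67 and CDK1 were the 2 members in these stretches, whose bounds were set from the earlier results. Of the members outside them CENPF had the lowest neighbours' median, -0.11 with 24 of 34 lower, against its own -0.23. For MKI67, 22 of 23 neighbours were lower, with a median of -0.34 against its own -0.41, and for CDK1, 11 of 15 were lower, with a median of -0.20 against its own -0.17. Whether DNA copy number differs between the lines was not tested. Without MKI67 and CDK1, 31 of 38 were lower and the median was -0.07.

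The MCM genes lie on separate chromosomes, and all 6 were below their neighbours' median, by a median of -0.25. For MCM6 the neighbours' median was 0.0075, with 9 of 18 lower. It was -0.04 for MCM5, -0.03 for MCM2, -0.04 for MCM3 and 0.04 for MCM7. For MCM4 it was -0.09, with 8 of 11 lower, against its own -0.19. The S-phase genes were below their neighbours in 14 of 15, by a median of -0.17, the mitotic genes in 15 of 21 (-0.08) and the G1/S genes in 1 of 4 (0.13). CCNE1 was 0.71 above the median of its 27 neighbours. Of all 40 members 30 were below their neighbours, and the median distance was -0.09. By the same measure 50.0% of 12252 genes kept, those with at least 1 neighbour, were below theirs.

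**Figure D3:**
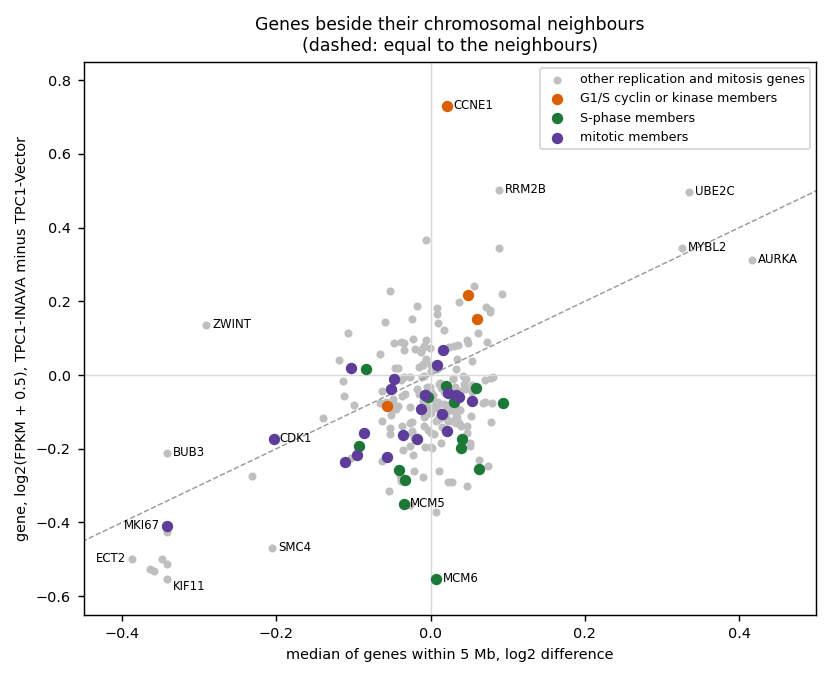
Difference of each gene in log2(FPKM + 0.5), TPC1-INAVA minus TPC1-Vector (y axis), against the median difference of its neighbours within 5 Mb (x axis), for the members (coloured) and 198 other replication and mitosis genes (grey), with a dashed line where both are equal. Another 4 of the other genes are not drawn, CDKN1A and CDKN1C among them. MKI67 and CDK1 lie at the left with their neighbours, and MCM6 and CCNE1 lie far from the line at a neighbour median near 0.

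Other genes of the same pathways were taken from 10 lists, and 202 of the 204 listed genes were kept. Of these 146 were lower in TPC1-INAVA and 56 higher (72.3% lower, against 49.2% of all genes), with a median of -0.07. At least 1.1-fold lower were 51 (25.2%, against 21.7% of all genes), and at least 1.1-fold higher were 20, against 23.4%. Outside the stretches of chromosomes 3, 10 and 20, 137 of 190 were lower (72.1%). There 42 (22.1%) were at least 1.1-fold lower, a share close to that of all genes. RFC4, named after its values were seen, was counted outside, though 39 of its 47 neighbours on chromosome 3 were lower (median -0.23). By list the share lower ran from 59.1% (origin and fork factors) to 78.9% (cohesin and condensin), against the same 49.2% of all genes. From each list the genes with the lowest and highest difference are named below.

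Among 22 origin and fork factors 13 were lower, with a median of -0.04. ORC1, the largest subunit of the origin recognition complex, was at 16.7 FPKM in vector cells and 13.9 FPKM in INAVA cells (-0.26), and the helicase gene RECQL4 at 21.7 and 27.6 FPKM (0.34). Of 29 genes for polymerases, the clamp loader and the nascent strand 21 were lower, also with a median of -0.04. The nuclease and helicase gene DNA2, which lies in the chromosome 10 stretch, was at 15.7 and 11.0 FPKM (-0.50) and POLD4, a small subunit of polymerase delta, at 4.98 and 5.98 FPKM (0.24), at a position shared with CLCF1. Of 8 genes of nucleotide supply 6 were lower (median -0.07). DUT, which degrades dUTP, was at 60.7 and 50 FPKM (-0.28). RRM2B, the p53-inducible counterpart of RRM2, was at 30.8 and 43.7 FPKM (0.50), while RRM2 itself differed by 0.02.

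Of 34 kinetochore and centromere genes 26 were lower (median -0.08), from OIP5 at 29.6 and 24.2 FPKM (-0.29) to CENPW at 23.2 and 26.6 FPKM (0.20). Of 25 spindle and cytokinesis genes 19 were lower (median -0.09), from the spindle motor gene KIF11 in the chromosome 10 stretch at 60.7 and 41.2 FPKM (-0.55) to ANLN, anillin of the contractile ring, at 159.6 and 187.2 FPKM (0.23) and a position shared with KIAA0895. Cohesin and condensin genes had 15 of 19 lower and a median of -0.11, from the cohesin subunit SMC3, also in the chromosome 10 stretch, at 53.2 and 36.7 FPKM (-0.53) to CDCA5 at 45.2 and 48.0 FPKM (0.09). Among 31 genes for mitotic kinases, phosphatases and the anaphase-promoting complex 23 were lower (median -0.03). CDC25B, a phosphatase that activates CDK1, was at 55.6 and 45.4 FPKM (-0.29), and UBE2C, the ubiquitin-conjugating enzyme of the anaphase-promoting complex, at 170.8 and 241.3 FPKM (0.50).

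DNA2, KIF11, SMC3 and UBE2C, the lowest or highest of their lists, lay in the shifted stretches. All 7 list genes in the chromosome 10 stretch (KIF11, KIF20B, CEP55, SMC3, WAPL, DNA2 and BUB3) were lower, with a median of -0.51, and both in the chromosome 3 stretch were, ECT2 at 147.7 and 104.3 FPKM (-0.50) and SMC4, at a position shared with IFT80, at 151.6 and 109.4 FPKM (-0.47). All 3 in the chromosome 20 stretch (MYBL2, AURKA and UBE2C) were higher, with AURKA at 123.9 and 154.0 FPKM (0.31). The stretches were known from earlier results of these data. Of all genes kept in them, 316 of 338 on chromosome 10 and 80 of 89 on chromosome 3 were lower. On chromosome 20, 132 of 148 were higher. KIF20B, CEP55, WAPL, BUB3, ECT2, SMC4 and AURKA were named after their values were seen. AURKA thus stood 0.31 above vector while its relative AURKB, a member on chromosome 17, stood at -0.06.

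Of the regulators above these genes, the E2F, pocket protein and DREAM list had 11 of 18 lower (median -0.04). E2F2 was at 3.15 FPKM in vector cells and 2.32 FPKM in INAVA cells (-0.37), and MYBL2, which drives mitotic genes with FOXM1, at 79.7 and 101.4 FPKM (0.34), close to its neighbours' median of 0.33. FOXM1 and MYBL2 thus lay on opposite sides of 0. Of 8 other cyclins and CDKs 6 were lower (median -0.07). The partners of cyclin D1 differed in direction, CDK4 at 129.5 and 110.1 FPKM (-0.23) and CDK6 at 14.8 and 19.2 FPKM (0.37), each at a position shared with another gene.

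CDK inhibitors held the only 2 genes of these lists that differed by at least 1.5-fold. Of the 202 list genes kept, 1 was that much higher and 1 that much lower, where 2.24% and 1.45% of all genes were. CDKN1A, which encodes p21, an inhibitor of CDK2 complexes that also binds PCNA, was at 71.8 FPKM in vector cells and 172.0 FPKM in INAVA cells, a difference of 1.25 against a neighbours' median of -0.04. CDKN1C, which encodes p57, was at 3.09 and 1.65 FPKM (-0.74), and its deposited position is on an alternate scaffold of chromosome 11. Of the 8 inhibitor genes 6 were lower and the median was -0.12, so most of the list lay on the other side of 0 from CDKN1A.

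The promoters printed above belong to a wider difference in sequence between S-phase and mitotic members. RefSeq promoters, from 250 bases before to 50 bases after the start, were at hand for 31 of the 40 members. They were 39 in all, since some genes have several starts. Some windows of a gene overlap, so that a site can be counted more than once, as the E2F site of CDK1 is. Other windows of a gene, such as those of PCNA, lie apart. An E2F site was found in 10 of 19 S-phase promoters (52.6%) and in 3 of 19 mitotic ones (15.8%). It was found in 3.31% of all 35116 promoters and in 4.98% of the 13533 promoters of genes kept. The cell cycle homology region showed the reverse, with 1 of 19 S-phase promoters (5.26%) and 12 of 19 mitotic ones (63.2%). It was found in 15.2% of all promoters and in 10.2% of those of genes kept. Its short run of letters was counted at any place in the window, and whether any match is bound was not tested. CCAAT boxes were common to both groups, in 15 (78.9%) and 17 (89.5%), against 34.6% of all promoters and 34.7% of those of genes kept. By gene, an E2F site was held by 10 of 13 S-phase genes and 2 of 17 mitotic genes, against 629 of 9238 genes kept with a promoter. A cell cycle homology region was held by 1 of 13 S-phase genes and 11 of 17 mitotic genes, against 1231 of those 9238.

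**Figure D4:**
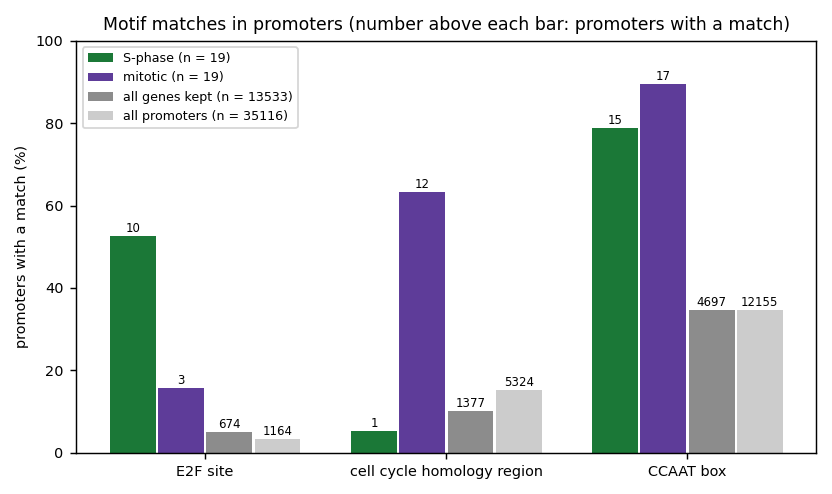
Share of promoters (y axis, percent) with at least 1 match of each motif on either strand, for S-phase members, mitotic members, all genes kept and all promoters of the table, with the number of promoters with a match above each bar. S-phase members lead for the E2F site (52.6%), mitotic members for the cell cycle homology region (63.2%), and both are high for the CCAAT box.

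Within the S-phase genes, the E2F site was found in 8 of 13 promoters of the licensing and firing genes, or 8 of the 9 genes with a promoter. In the fork and nucleotide genes it was found in 2 of 6 promoters, or 2 of 4 genes. The median difference was -0.20 over all 11 licensing and firing genes, which include MCM4 and MCM5 without a promoter here. It was -0.04 over the 4 fork and nucleotide genes. The sites of the second group belonged to PCNA (at -59) and TYMS (at -39), which differed by -0.03 and -0.06, and the licensing genes with a site spanned MCM6 (-0.55) to CDT1 (-0.04). Among mitotic genes, the cell cycle homology region lay at -29 in PLK1 (-0.17), CCNB2 (-0.16) and MKI67 (-0.41), and at -23 in BUB1B (-0.01). Members with the same element thus differed in size. Among genes kept that are no members, 62.0% of the 92 with both elements were lower (median -0.05), against 48.9% of 7463 with neither. The shares were 52.0% of 525 with the E2F site only and 53.2% of 1127 with the cell cycle homology region only. The 202 list genes described above, 72.3% of them lower, were not left out where they had a promoter. These shares are therefore not independent of the lists.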

How the data were processed

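RNA was sequenced from 2 libraries each of TPC1-Vector and TPC1-INAVA cells. Per the submitters' processing notes, the authors used CASAVA, Cufflinks 2.1.1 and Cuffdiff with hg38. The aligner and annotation are not given in the sources used here. The authors deposited 1 FPKM value per gene and group, with the libraries combined, so that differences between libraries cannot be seen. Their log2 ratio, p-value and q-value columns were not used.

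Differences of log2(FPKM + 0.5) were computed in Python 3.11.15 with pandas 2.3.3, for the 12305 of 13165 genes whose mean was 0.5 FPKM or more. The pseudocount makes differences of low genes smaller. FPKM values are relative to each group's total. A position in the table is shared with another gene by 7 members. How their reads were divided is not given. The members and lists were chosen with earlier results of these data known. All members are named, and of each other list the genes with the lowest and highest difference and any at least 1.5-fold apart. The calculation was tested on simulated data. Alternatives were other pseudocounts, filters, scalings and gene groupings.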

Additional observations from a re-analysis of the deposited data

How the results depend on the processing

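With pseudocounts of 0.1 and 1 FPKM and with median-of-ratios scaling, each of the 40 members kept its value within 0.05 on the log2 scale. With quantile normalization 9 moved by more, and RRM2, MAD2L1 and CDC20, all within 1.1-fold, were below 0. With the G1/S genes counted as S-phase genes, the S-phase median was -0.077 and the S-phase minus mitotic difference 0.016. With quantile normalization 4 members in place of 7 were higher, 1 mitotic member in place of 3 was higher, CCND1 (0.084) was no longer 1.1-fold apart and KIF20A (-0.14) was, and the S-phase minus mitotic difference was -0.037 in place of -0.081. The member, S-phase and mitotic medians moved by under 0.05 with each scaling and pseudocount and without the members of the shifted stretches, CCNA2 or the members at a shared position. Neighbour counts and the other gene lists were not recomputed under these settings. No paired analysis was possible because each group has 1 combined value, and leaving out a library could not be run for the same reason.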
